A study of Mus musculus with 2 samples.

Results

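The regions described here are 10 stretches of the mouse genome that each hold an imprinted gene or cluster other than the *H19*-*Igf2* locus edited in these cells. They are named after *Snrpn*, *Peg3*, *Grb10*, *Peg10*, *Mest*, *Igf2r*, *Gnas*, *Nnat*, *Plagl1* and *Rasgrf1*. The windows were set by position on mm9 and their rule uses no measured value, but they were chosen with earlier results of these data known. The *Snrpn* window spanned 4.0 Mb and each of the others 1.0 Mb. They held 938 of the 170305 probes on the array, from 62 in the *Gnas* window to 215 in the *Snrpn* window, and all 938 were measured on both arrays.

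Genomic DNA of androgenetic haploid embryonic stem cells (AG-haESCs), which are derived from embryos with a sperm genome alone, was compared on 2 dual-colour arrays. Each array set 1 line with the *H19* transcription unit and its imprinting control region deleted, H19Δ1 or H19Δ2 (Cy5), against the wild-type parental line AGH-OG-3, labelled OG-3 (Cy3). Every line therefore carried the paternal genome and the *Oct4*-eGFP transgene of AGH-OG-3, each deleted line was 1 clone with a *PGK-neo* cassette at the deletion, and a C57BL/6 background is given for H19Δ1. All were grown in serum medium with LIF, CHIR99021 and PD0325901, and feeder cells were depleted, by letting them settle, ahead of DNA extraction. With 1 array per line, no dye swap and no control against control, no test was possible, and each error below is an SD over probes, which are not replicates of a line.

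Imprinted genes are transcribed mainly from the allele of 1 parent, and the choice follows DNA methylation that is placed on control regions in the sperm or the egg. In cells that hold a sperm genome alone, paternally expressed genes such as *Peg10*, *Mest*, *Snrpn*, *Peg3*, *Nnat* and *Plagl1* are held as the allele that is normally active, whereas *Igf2r* is normally expressed from the maternal allele. The arrays measured DNA copy number, so neither methylation nor transcription of these genes was read.

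Control regions of imprinted genes often overlap a promoter rich in CpG, the dinucleotide that is methylated. RefSeq promoters, 300 bases each on GRCm38.p6, were found for 9 of the 10 loci, 18 promoters in all. They are shown for 4 paternally expressed loci so that the kind of sequence at stake can be seen, 5′ to 3′ on the gene's strand with every CpG in capitals. *Mest* and *Snrpn* had several promoters, with as few as 8 and 2 CpG, and a promoter with the most CpG is shown. *Mest* (chr6:30737800-30738099, plus strand) and *Nnat* (chr2:157559828-157560127, plus strand) each held 17 CpG, *Peg3* (chr7:6730370-6730669, minus strand) held 13 and the *Snrpn* promoter at chr7:60005150-60005449 (minus strand) held 7, which is the median of all 32851 RefSeq promoters.
Mest: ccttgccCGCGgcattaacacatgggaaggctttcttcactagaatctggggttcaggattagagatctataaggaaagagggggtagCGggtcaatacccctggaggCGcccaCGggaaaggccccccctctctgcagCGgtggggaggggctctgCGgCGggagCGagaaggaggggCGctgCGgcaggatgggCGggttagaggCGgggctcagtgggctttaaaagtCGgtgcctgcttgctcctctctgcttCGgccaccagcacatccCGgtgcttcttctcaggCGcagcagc
Nnat: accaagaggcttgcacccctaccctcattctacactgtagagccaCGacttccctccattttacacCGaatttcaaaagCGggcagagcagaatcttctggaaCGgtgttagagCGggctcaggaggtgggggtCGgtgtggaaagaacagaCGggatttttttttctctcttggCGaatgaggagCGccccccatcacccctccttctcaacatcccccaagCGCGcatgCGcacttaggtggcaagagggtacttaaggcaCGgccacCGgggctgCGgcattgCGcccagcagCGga
Peg3: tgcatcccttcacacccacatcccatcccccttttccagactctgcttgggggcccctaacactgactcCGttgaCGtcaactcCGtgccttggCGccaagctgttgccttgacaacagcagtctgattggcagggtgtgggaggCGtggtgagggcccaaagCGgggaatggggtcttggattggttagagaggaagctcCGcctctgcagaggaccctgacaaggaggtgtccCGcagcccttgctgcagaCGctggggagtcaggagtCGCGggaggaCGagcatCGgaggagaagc
Snrpn: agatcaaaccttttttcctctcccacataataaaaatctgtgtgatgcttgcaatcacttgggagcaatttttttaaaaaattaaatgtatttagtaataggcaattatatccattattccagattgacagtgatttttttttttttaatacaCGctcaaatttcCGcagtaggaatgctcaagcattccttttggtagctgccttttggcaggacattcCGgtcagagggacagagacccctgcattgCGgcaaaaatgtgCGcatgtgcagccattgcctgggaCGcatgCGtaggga

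The 18 promoters ranged from 2 CpG in another *Snrpn* promoter to 45 in a *Grb10* promoter. The letters TGCCGC, searched on both strands (GCGGCA on the other), were present in promoters of 5 of the 9 loci (6 of the 18 promoters, of which a pair from *Mest* overlap almost wholly) and in 11.6% of all RefSeq promoters. A match is a description of the letters only. The letters contain a CpG, most of the 18 promoters held more CpG than the median RefSeq promoter, and the shares were not adjusted for this. The probes are placed on mm9 and the promoters on GRCm38.p6, so no probe was assigned to a promoter.

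Signal was well above background at 99.9% of the 174305 spots of each array, and the noise between neighbouring probes was 0.121 (H19Δ1) and 0.119 (H19Δ2) on the log2 scale. To look for the deletion, chromosome 7 was first searched for probes with a log2 ratio below -2 in both lines. The search gave 2 probes, both outside the windows, at 149761403 and 149768746. They were picked by their low values and were not assigned to a gene, so they are no independent check. They read -3.67 and -3.79 in H19Δ1 and -3.70 and -2.92 in H19Δ2. Cy5 at the second was not well above background in either. They lay in a segment of 3 probes from 149754629, with means of -2.56 ± 2.03 in H19Δ1 and -2.27 ± 1.84 in H19Δ2. The longest strongly shifted segments were a loss of -0.50 on chromosome 6 in H19Δ1 (4.42 Mb) and a gain of 0.55 on chromosome 12 in H19Δ2 (35.8 Mb), neither of which overlapped a window. None of the 962 spots of the windows was saturated or not well above background, and 1 was left out as an outlier (*Snrpn*, H19Δ1).

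In H19Δ1, the mean log2 ratio of the 10 windows ran from -0.0109 (*Igf2r*) to 0.0168 (*Mest*). No window reached 0.1 in size, a level reached by 0.675% of the 2369 autosomal bins of 1 Mb that held at least 20 probes. The spread of these bin means, as a robust SD, was 0.0211 in H19Δ1, 0.0269 in H19Δ2 and 0.0248 for the difference between the lines, and it is the scale used for window means. In H19Δ2, 8 windows lay between -0.0215 (*Grb10*) and 0.0201 (*Peg3*). The other 2, *Peg10* and *Mest*, both on proximal chromosome 6, stood at 0.144 ± 0.123 (SD over 89 probes) and 0.1498 ± 0.110 (SD over 81 probes). On that array 5.02% of the bins passed 0.1 in size, so 2 of 10 windows exceeded the background, but 57 of the 119 bins called lay on chromosome 12 and 43 on chromosome 6 itself. The 2 windows share a chromosome and are not separate observations.

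**Figure D1:**
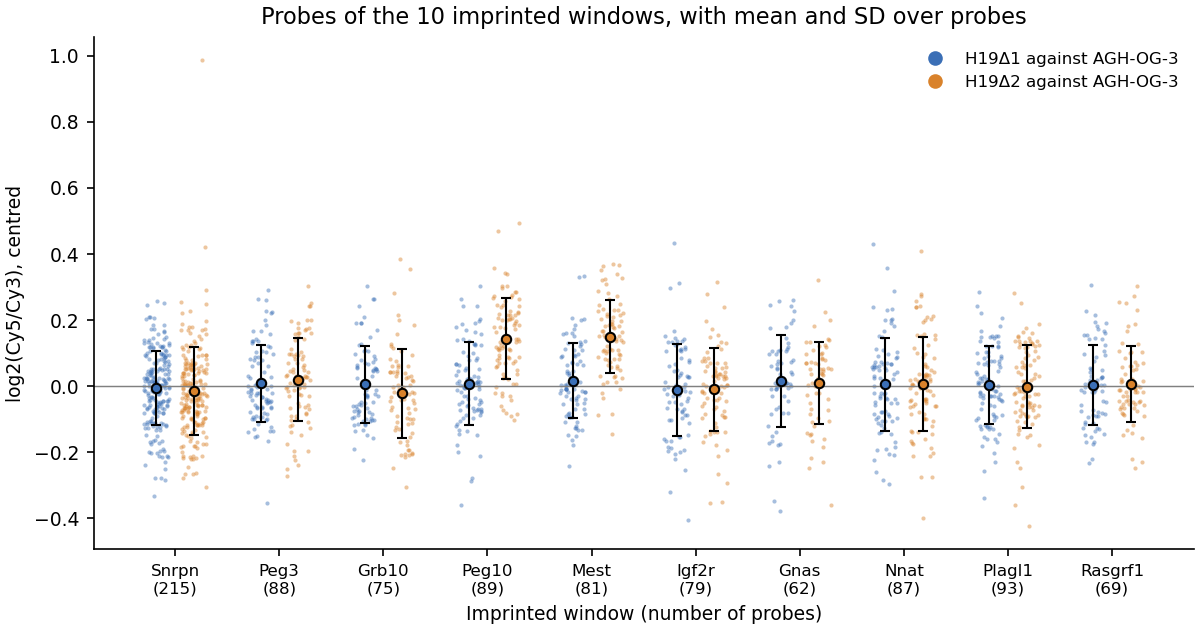
Centred log2(Cy5/Cy3) of every probe in the 10 imprinted windows (horizontal axis, number of probes in brackets), H19Δ1 in blue and H19Δ2 in orange, with the mean and SD over probes as ringed points and bars. The *Peg10* and *Mest* means of H19Δ2, 0.144 and 0.1498, sit above all the others, which lie between -0.0215 and 0.0201, while the bars overlap.

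**Figure D2:**
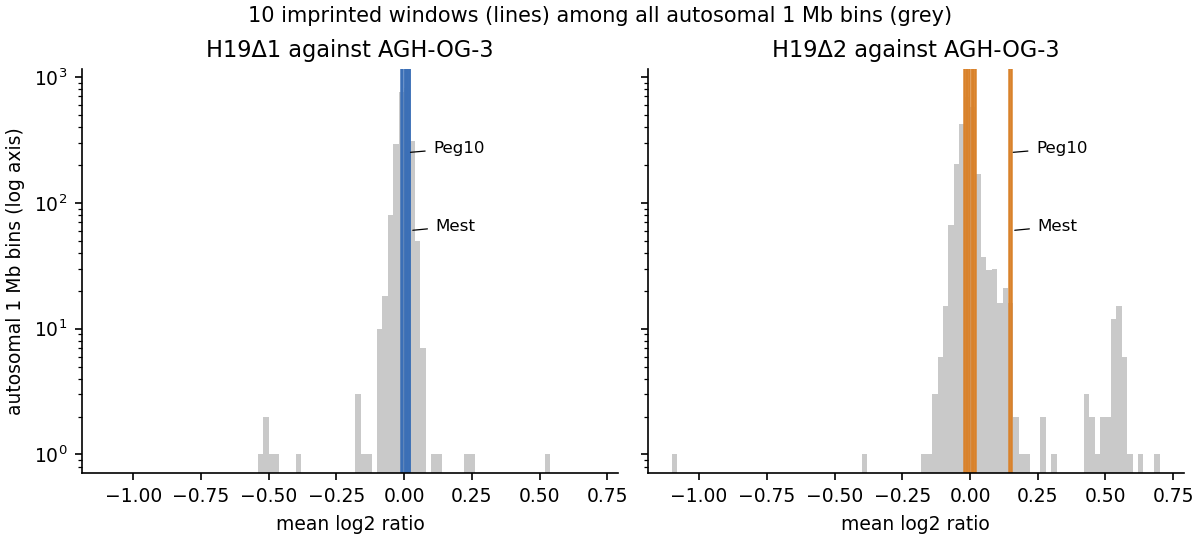
Number of autosomal 1 Mb bins (vertical log axis) by mean log2 ratio (horizontal axis, grey bars of 0.02), with the mean of each of the 10 windows as a vertical line, for H19Δ1 (left) and H19Δ2 (right). All 10 lines fall in the main peak for H19Δ1, and *Peg10* and *Mest* fall on its right shoulder for H19Δ2.

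*Peg10* is a gene of retrotransposon origin with a role in the placenta, and it lies next to *Sgce*, with *Casd1* and *Ppp1r9a* among its neighbours. Its window had a mean of 0.00829 ± 0.124 in H19Δ1 and 0.144 ± 0.123 in H19Δ2. The H19Δ2 mean equals a Cy5/Cy3 ratio of 1.11, with median signals of 1100 (Cy5) and 974 (Cy3). Of the 89 probes, 47 lay above 0 in H19Δ1 and 77 in H19Δ2. The shift was thus spread over most probes of the window, although the ranges of single probes overlapped, from -0.358 to 0.305 in H19Δ1 and from -0.101 to 0.494 in H19Δ2.

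*Mest* encodes a protein of the hydrolase fold family, and its neighbours are *Cep41* on one side and *Copg2*, *Tsga13* and *Klf14* on the other. Its window had a mean of 0.0168 ± 0.114 in H19Δ1 and 0.1498 ± 0.110 in H19Δ2, a ratio of 1.11. Probes above 0 numbered 40 of 81 in H19Δ1 and 75 of 81 in H19Δ2. The median over probes was 0.1498 in H19Δ2 but -0.0069 in H19Δ1, so the small positive mean of H19Δ1 did not hold its sign. The means of *Peg10* and *Mest* in H19Δ2 differed by less than the bin spread of 0.0269.

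Probe by probe, H19Δ2 exceeded H19Δ1 by 0.136 ± 0.119 in the *Peg10* window (76 of 89 probes higher) and by 0.133 ± 0.139 in the *Mest* window (64 of 81 probes higher). Of the bins, 4.9% differed between the lines by 0.1 or more in size. Both arrays used DNA of the same reference line, so this difference is between the 2 deleted lines only as far as the reference channel was alike. The differences of the other 8 windows ran from -0.0275 (*Grb10*) to 0.0109 (*Peg3*). Away from chromosomes 6 and 12, 0.9% of 2111 bins passed 0.1 in size in H19Δ2, and 5 of them were as high as the *Peg10* window or higher.

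Within the windows the shift did not rest on a single probe. Cut into steps of 100 kb, H19Δ2 exceeded H19Δ1 in 10 of 10 steps of the *Peg10* window and in 10 of 10 steps of the *Mest* window. All steps lie on proximal chromosome 6 and are not separate observations. The 2247 probes of the segment around the windows, described below, differed by 0.137 ± 0.137 as well. The steps of *Peg10* ran from 0.0751 to 0.194 in H19Δ2 and from -0.0572 to 0.0704 in H19Δ1, without overlap. Those of *Mest* ran from -0.0012 to 0.208 in H19Δ2 and from -0.0297 to 0.0708 in H19Δ1, and they did overlap. The lowest step of *Mest* rested on the run of 5 probes from 30915304 to 30995042.

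A mean over 5 consecutive probes was also taken along each window. No such run reached 0.2 in size in H19Δ1, where 0.603% of all autosomal runs did. In H19Δ2, 26 of 898 runs (2.90%) reached 0.2, all of them higher, against 2.37% of all autosomal runs. Read over the windows together this was close to the background, but 25 of the 26 lay on chromosome 6, 13 in the *Peg10* and 12 in the *Mest* window, which is 15.4% of the 162 runs there. Off chromosome 6, 1 of 736 runs reached 0.2. The highest run had a mean of 0.258 and lay in the *Mest* window (30277142 to 30334735), and the highest of the *Peg10* window was 0.247 (4860263 to 4890388). Overlapping runs share probes and are not separate counts.

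The raised level did not begin or end at either imprinted window. In H19Δ2 both windows lay inside 1 segment of chromosome 6, from 3583826 to 39448381 (35.9 Mb, 2416 probes, 0.137 ± 0.123). The 2247 probes of that segment outside the windows had a mean of 0.136 ± 0.124, so each window differed from its surroundings by less than the bin spread of 0.0269. In H19Δ1 the same 2247 probes had a mean of -0.00113 ± 0.123. The flanks of 1 Mb stood at 0.170 and 0.164 beside *Peg10* and at 0.149 and 0.144 beside *Mest* in H19Δ2. The proximal *Peg10* flank (SD 0.170 over 77 probes) also took in the end of a higher stretch, at 0.557, that precedes the segment. No segment border fell inside any of the 10 windows in either line, among 111 segments in H19Δ1 and 140 in H19Δ2.

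Proximal to the segment, the 27 probes from 3131098 to 3571947 averaged 0.557 ± 0.118 in H19Δ2, against 0.00718 ± 0.108 in H19Δ1. This stretch ended 0.928 Mb before the *Peg10* window. Distal to the segment, the level of H19Δ2 was 0.0774 up to 47758273, 0.102 up to 51796674 and 0.0467 up to 55761151. From 55782881 to 60204117 the lines went opposite ways, at 0.448 in H19Δ2 and -0.503 in H19Δ1. Beyond 62546677, the remaining 6075 probes averaged -0.00273 ± 0.126 in H19Δ2, against 0.00311 ± 0.125 in H19Δ1. The *Peg10* and *Mest* windows therefore lay in a proximal part of chromosome 6 with a raised ratio, and the distal part of the same chromosome was near 0.

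**Figure D3:**
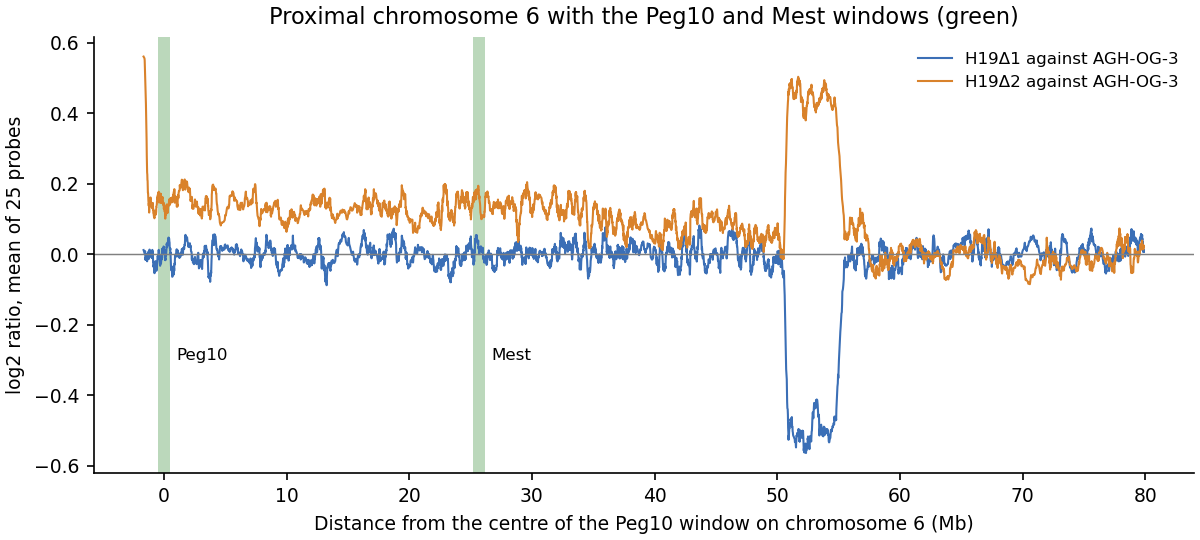
Mean log2 ratio of 25 consecutive probes (vertical axis) along proximal chromosome 6, by distance from the centre of the *Peg10* window in Mb (horizontal axis), for H19Δ1 (blue) and H19Δ2 (orange), with the *Peg10* and *Mest* windows in green. H19Δ2 stays above H19Δ1 through both windows and the stretch between them, and the lines part to 0.448 and -0.503 farther along.

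DNA was pooled from many cells, so a change of copy number in some cells and a smaller change of signal in all cells cannot be told apart at a level of 0.14. The call also depended on what served as 0. The median of chromosome 6 was 0.0473 in H19Δ2, and with each window centred on the median of its own chromosome, *Peg10* stood at 0.0978, under 0.1, and *Mest* at 0.103. Such a median takes in the raised proximal stretch around the windows, so subtracting it removes part of the shift itself. The median of the other autosomes was -0.00267 in H19Δ2.

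The *Snrpn* window holds a large cluster with *Snurf*, *Ndn* and the ubiquitin ligase gene *Ube3a*, the region whose human counterpart is lost or silent in Prader-Willi and Angelman syndromes. Its mean over 215 probes was -0.00609 ± 0.112 in H19Δ1 and -0.0142 ± 0.134 in H19Δ2. In steps of 1 Mb, H19Δ1 ran from -0.0311 to 0.02 and H19Δ2 from -0.0262 to -0.00284, so no step reached 0.1. The window had a median probe spacing of 13.6 kb but no probe from 66601308 to 66875048, a gap of 273.8 kb within which a change could not have been seen. It lay on the same chromosome as the deleted *H19* locus, in a segment with a mean of 0.000769 in H19Δ1 and -0.0151 in H19Δ2.

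A single probe of the 938 passed 0.5 in size. It lay in the *Snrpn* window, at chr7:68334769-68334828 on mm9, and read 0.99 in H19Δ2 against -0.06 in H19Δ1. Its Cy5 and Cy3 signals were 3019 and 1515 in H19Δ2 and 1279 and 1321 in H19Δ1, so Cy5 was the channel that was brighter in H19Δ2. The probe had 1 spot on each array and its nearest neighbours read -0.245 and -0.035 in H19Δ2, so nothing beside it repeated the value, and the 1 run off chromosome 6 that reached 0.2 began with this probe. On the whole array, 1.16% of autosomal probes were at 0.5 or higher in H19Δ2 and 0.0936% at -0.5 or lower. In H19Δ1 these shares were 0.102% and 0.208%, and no probe of the windows was among them in either direction.

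*Peg3* encodes a paternally expressed zinc finger protein and lies among *Zim1* and *Usp29* on proximal chromosome 7. Its window had a mean of 0.00919 ± 0.117 in H19Δ1 and 0.0201 ± 0.126 in H19Δ2 over 88 probes, the highest H19Δ2 value off chromosome 6 but under the bin spread of 0.0269. Single probes ran from -0.352 to 0.292 in H19Δ1 and from -0.271 to 0.305 in H19Δ2. In H19Δ1 the median was -0.0188, opposite in sign to the mean, which leaves no direction.

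*Grb10*, an adaptor of growth factor receptors that restrains growth, had the lowest window of H19Δ2, at -0.0215 ± 0.135 over 75 probes, and 0.00599 ± 0.117 in H19Δ1. The difference of -0.0275 ± 0.120 was the most negative of the 10, slightly past the bin spread of 0.0248 in size, and 31 of 75 probes were higher in H19Δ2. Under the alternative settings described below, the difference ran from -0.0346 (autosomal mean as 0) to -0.0206 (median over probes, or own chromosome as 0). It thus fell on both sides of that spread. The *Grb10* median of H19Δ1 was -0.0237, opposite in sign to the mean. The gene lies between *Ddc* and *Cobl* on chromosome 11, and the segment around it stood at 0.0074 in H19Δ1 and 0.00218 in H19Δ2. *Igf2r*, the receptor that clears IGF2 for degradation and that is maternally expressed, lies on chromosome 17. Its window had means of -0.0109 ± 0.140 and -0.0095 ± 0.127 over 79 probes. No probe lay between 13209287 and the end of the window at 13400000, so a change there could not have been seen. The probe with its highest value in H19Δ1, at chr17:13062421-13062480, read 0.435 in that line and -0.349 in H19Δ2, the widest downward gap between the lines among all members.

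*Gnas*, the stimulatory G protein subunit with several promoters of different imprinting, had a window of 62 probes with means of 0.0163 ± 0.139 in H19Δ1 and 0.00963 ± 0.125 in H19Δ2. It was the window with the fewest probes, and its widest gap was 60.1 kb. *Plagl1*, a paternally expressed zinc finger gene, had means of 0.00282 ± 0.118 and -0.0019 ± 0.126 over 93 probes. *Rasgrf1*, an exchange factor of the Ras pathway, had means of 0.00414 ± 0.121 and 0.00726 ± 0.115 over 69 probes. The differences between the lines of these 3 windows, from -0.00668 (*Gnas*) to 0.00312 (*Rasgrf1*), were under the bin spread of 0.0248 in size.

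*Nnat*, a small membrane protein gene that lies within the *Blcap* locus on chromosome 2, stood apart by its surroundings. Its window was near 0, at 0.00574 ± 0.140 in H19Δ1 and 0.00638 ± 0.142 in H19Δ2 over 87 probes. On both sides the ratio was lower in both lines. The segment before it had a mean of -0.138 in H19Δ1 (2.27 Mb, 222 probes) and -0.156 in H19Δ2 (2.48 Mb, 239 probes), and the segment after it -0.120 (36 probes) and -0.135 (32 probes). Between them the window sat in a segment of its own, 1.62 Mb long in H19Δ1 and 1.56 Mb in H19Δ2. The nearest border was 0.185 Mb from the window in H19Δ1 and 0.158 Mb in H19Δ2.

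Widening the *Nnat* window by 0.5 Mb on each side therefore lowered its mean to -0.0262 in H19Δ1 and -0.0246 in H19Δ2. Both arrays shared the reference DNA, the slide and the scan, so a feature of AGH-OG-3, of the probes or of the slide and a change common to the deleted lines cannot be told apart where both lines show the same value.

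**Figure D4:**
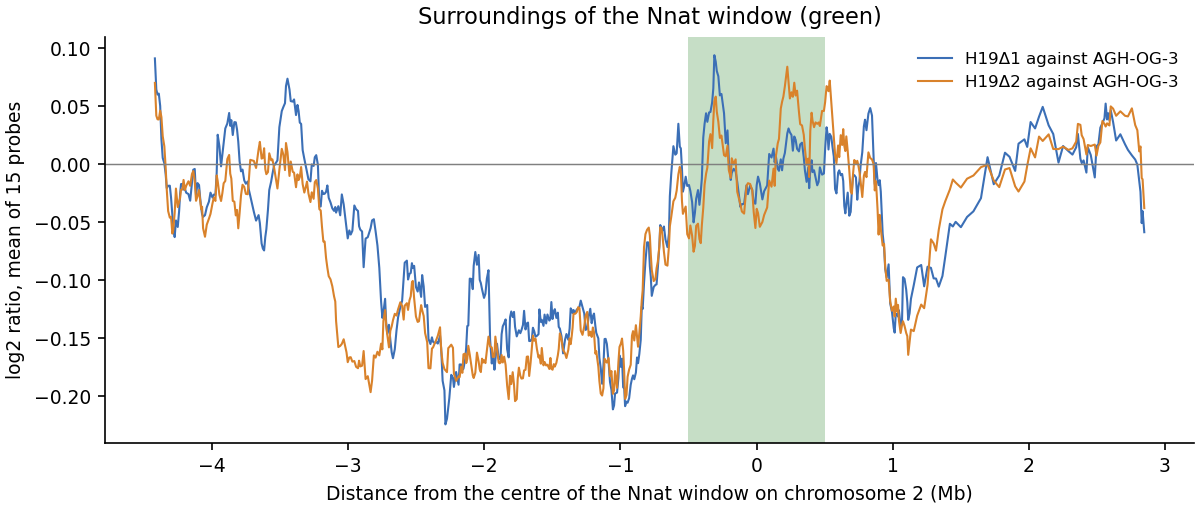
Mean log2 ratio of 15 consecutive probes (vertical axis) around the *Nnat* window, by distance from its centre in Mb (horizontal axis), for H19Δ1 (blue) and H19Δ2 (orange), with the window in green. Both lines dip on both sides of the window, to segment means between -0.120 and -0.156, and lie around 0 inside it.

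The 2 arrays also moved together at the level of single probes. Over the 938 probes of the windows the Pearson correlation between the lines was 0.399, and over all 161370 autosomal probes measured on both arrays it was 0.272. Without chromosomes 6 and 12, where the lines had large differences, it was 0.330 over 143982 autosomal probes. Within single windows it ran from 0.228 (*Mest*) to 0.616 (*Nnat*). The points share the reference DNA, the slide and the probe sequences, so the values are given as a description. The precision of a single probe can be read from 6 probes of the windows that were spotted 5 times. The median SD between spots of 1 probe was 0.108 in H19Δ1 (from 0.0427 to 0.149) and 0.0870 in H19Δ2 (from 0.0389 to 0.183). The SD over the probes of a window was higher than these medians, from 0.112 to 0.140 in H19Δ1 and from 0.110 to 0.142 in H19Δ2. For the repeated *Mest* probe at 30786574 the 5 spots ran from -0.0418 to 0.203 in H19Δ1 and from 0.00817 to 0.380 in H19Δ2, and the lines overlapped. A shift of 0.14 could thus be seen in a mean over a window but not from a single spot.

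The means over all members separate by chromosome. The 768 probes of the 8 windows off chromosome 6 had a mean of 0.00149 ± 0.123 in H19Δ1 and -0.00283 ± 0.130 in H19Δ2. The 170 probes of *Peg10* and *Mest* had a mean of 0.0124 ± 0.119 in H19Δ1 and 0.147 ± 0.117 in H19Δ2.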

How the data were processed

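DNA of 2 deleted lines (Cy5) and of AGH-OG-3 (Cy3) was hybridised to Agilent SurePrint G3 Mouse CGH arrays, 1 per line. The deposited scanner files give processed signal intensity per spot, already background-subtracted and dye-normalized, and the log10 ratio of red over green. The series matrix deposited by the authors holds the same log10 ratios within rounding. The file header names Feature Extraction 11.5.1.1 and the submitters' processing notes name 10.10. Log2(Cy5/Cy3) was computed from the processed intensity. Control and outlier spots were left out, repeated spots were combined by their mean, and the autosomal median of each array was set to 0 (0.0113 and 0.00798 subtracted). Precision is limited by the number of arrays.

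Windows were compared with 1 Mb bins (0.1 or more in size), with probes past 0.5 and with runs of 5 probes past 0.2. Segments of at least 3 probes came from a penalised least-squares fit, tested on simulated data. The planted shifts were all larger in size than the segment of the *Peg10* and *Mest* windows and those beside *Nnat*. They were planted in shuffled values and false borders were not counted, so borders and levels of that smaller size were not tested. No test was run, since each line has 1 array. The members and lists were chosen with earlier results of these data known. Named genes were the 10 loci, and single probes were the lowest and highest of each window and any past 0.5. The run positions quoted and the repeated probe were chosen after their values were seen. The files name no genes for the windows' probes: gene names, neighbour order and promoters are from RefSeq on GRCm38.p6, and all probe positions are on mm9. Alternatives changed the spots used, the signal (normexp with an offset of 50, the deposited log10 ratio, the series matrix), the centring, the summary, the window size, the thresholds and the segment penalty. Python 3.11.15, numpy 2.4.6, pandas 2.3.3, numba 0.67.0, matplotlib 3.10.9, R 4.3.3 and limma 3.58.1 were used.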

Additional observations from a re-analysis of the deposited data

How the results depend on the processing

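Each result was recomputed under the alternatives, 432 values in all, of which 399 moved by less than the spread of 1 Mb bin means (0.0211 in H19Δ1, 0.0269 in H19Δ2 and 0.0248 for the difference) or stayed within 1.5 times the count, 33 moved further and 0 changed the sign of a called value. Several alternatives could hardly move a value, so the 399 are not a measure of robustness. Of the 962 window spots of each array, 1 in H19Δ1 was an outlier and none was dim or saturated. The deposited log10 ratio and the series matrix hold the same ratios. Leaving out the centring shifted each window mean only by the subtracted 0.0113 (H19Δ1) or 0.00798 (H19Δ2). The *Peg10* mean of H19Δ2 ran from 0.0978 to 0.172 and that of *Mest* from 0.103 to 0.159. Centring on the own chromosome took *Peg10* in H19Δ2 to 0.0978, its difference between the lines to 0.0859, *Mest* in H19Δ2 to 0.103 and its difference to 0.0832, so 3 of these 4 no longer passed 0.1. The median subtracted there includes the raised proximal stretch of chromosome 6. With normexp, *Peg10* in H19Δ2 was 0.172. The other 8 windows stayed within -0.0262 to 0.0309 (H19Δ1) and -0.028 to 0.0367 (H19Δ2). With the median over probes, H19Δ1 gave -0.0188 for *Peg3*, -0.0237 for *Grb10* and -0.0069 for *Mest*, and H19Δ2 gave 0.0367 for *Gnas*. The middle of the *Gnas* window gave a difference of 0.0182. The widened *Nnat* window gave -0.0262 in H19Δ1 and -0.0246 in H19Δ2.

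Counts depended on the threshold. The share over all autosomal probes or runs was not taken at these settings, so the counts below have no background beside them. At 0.3, H19Δ1 had 9 probes higher and 8 lower and H19Δ2 had 25 higher and 9 lower. At 0.4, these were 2 and 1 in H19Δ1 and 5 and 1 in H19Δ2. With normexp, H19Δ2 had 10 probes higher and 2 lower, and with no centring 2 higher. Runs past 0.15 numbered 2 higher and 3 lower in H19Δ1 and 85 higher and 6 lower in H19Δ2. With normexp, 4 runs of H19Δ1 were higher, and in H19Δ2 51 were higher and 1 was lower. Centring on the own chromosome left 3 higher runs in H19Δ2, and runs of 10 probes gave 12. A segment penalty of 1 placed 5 borders in windows of H19Δ2. The cause was not tested for any of these. No paired analysis was possible because the lines share no replicate numbers beyond 1 array each, and no replicate could be left out. The number of arrays limits these results, beside the choice of what served as 0, the pooling of DNA from many cells and the gaps between probes.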
